A study of Mus musculus with 10 samples.

Results

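RNA of TFIID and the other preinitiation factors was compared between sorted cortical neurons that had lost Cdk7 and neurons that had kept it. The genes were chosen by name from the deposited table of gene counts. They were the Taf genes with a number and at most 1 letter, together with Tbp, Tbpl1, Gtf2a1, Gtf2a2, Gtf2b, Gtf2e1, Gtf2e2, Gtf2f1 and Gtf2f2. The rule gave 32 genes of 55573 in the table, and genes of TFIIH, the factor that contains the CDK7 kinase, were not included. Of the 32 genes 30 had enough counts to be tested, and the other members were Taf9 and Taf7l.

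The 5 Cdk7_KO libraries came from pups of the genotype NexCre/+;Cdk7lox/lox, R26EYFP/+ and the 5 Ctrl libraries from pups of the genotype NexCre/+;Cdk7+/+, R26EYFP/+, all on postnatal day 3. Both groups thus carried the NexCre driver and the EYFP reporter, and cells were sorted by EYFP from the dissociated cortex, with 1 preparation per mouse. NexCre drives Cre from the Neurod6 gene, which young excitatory neurons of the dorsal forebrain express, so the deletion is limited to cells that have used that gene. PolyA RNA was sequenced from a directional kit, and total counts per library lay between 23497621 and 31233466.

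Transcription by RNA polymerase II starts when a preinitiation complex assembles on the promoter. TFIID, made of the TATA-binding protein TBP and its associated factors (TAFs), recognises the core promoter, and TFIIA steadies it there. TFIIB, then TFIIF with the polymerase, TFIIE and TFIIH follow, and the CDK7 kinase of TFIIH phosphorylates the C-terminal repeats of the polymerase. Other proteins that carry a TAF name belong to the SAGA-type acetyltransferase complexes, to the selectivity factor of RNA polymerase I or to RNA-binding proteins.

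Cdk7 itself was low in each Cdk7_KO library. It had 7.07, 3.63, 4.38, 5.13 and 5.60 CPM (counts scaled to the library total) in Cdk7_KO replicates 1 to 5, against 13.2, 10.1, 17.4, 20.3 and 17.2 CPM in Ctrl replicates 1, 3, 4, 5 and 6. The groups did not overlap, and the Cdk7_KO mean was 33.0% of the Ctrl mean (two-sided exact permutation p = 0.00794, the lowest value possible with 5 against 5 libraries). The log2 fold change of Cdk7_KO over Ctrl was -1.54 (95% interval -2.03 to -1.06), and the edgeR adjusted p over 15578 genes was 0.161, while DESeq2 gave an adjusted p of 2.26e-08. Since counts were summed over whole genes, the exons behind the remaining Cdk7 reads are not known.

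Markers of projection neurons summed to 1800 to 2417 CPM in Cdk7_KO and 1530 to 2290 CPM in Ctrl libraries, and all 8 had positive log2 fold changes with a median of 0.31. Markers of other cells were present at lower levels. Those of radial glia and proliferating cells summed to 50.6 to 209 CPM in Cdk7_KO and 225 to 332 CPM in Ctrl, without overlap. Astrocyte markers summed to 65.2 to 411 CPM in Cdk7_KO and 351 to 758 CPM in Ctrl. All tested markers of these lists and of interneurons, the oligodendrocyte lineage, microglia, vessels and red blood cells had negative log2 fold changes, and 0 markers of any list were at 0 in all libraries. Their part in the values of the members was not tested. In such bulk samples fewer cells of a type and less RNA per cell cannot be told apart. Xist and Ddx3y marked Cdk7_KO replicates 1, 2 and 3 and Ctrl replicates 1 and 3 as male and the other 5 libraries as female, so sex and the sets of replicate numbers cannot be told apart.

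The start regions of these genes show what the core promoters of the members look like. RefSeq (GRCm38.p6) gave 36 windows for 28 of the 32 members, each with 250 bases before and 50 after an annotated start. The 100 bases before the start are printed 5′ to 3′ on the gene's own strand for the members described most closely below and for Taf13, whose stretch holds a TATA box. Capitals mark the GC box GGGCGG, the ETS motif CCGGAAG and the TATA box TATAAA, or their reverse complements. The stretches lie at chr2:10048610-10048709 (minus strand, Taf3), chr9:70012448-70012547 (plus, Gtf2a2), chr17:57011289-57011388 (minus, Gtf2f1), chr7:105744339-105744438 (minus, Taf10), chrX:106221159-106221258 (minus, 1 of the Taf9b starts) and chr3:108571599-108571698 (plus, Taf13).
Taf3: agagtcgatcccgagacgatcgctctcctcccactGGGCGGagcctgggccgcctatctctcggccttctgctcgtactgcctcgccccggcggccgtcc
Gtf2a2: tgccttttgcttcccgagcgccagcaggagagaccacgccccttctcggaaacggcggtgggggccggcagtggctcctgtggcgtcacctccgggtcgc
Gtf2f1: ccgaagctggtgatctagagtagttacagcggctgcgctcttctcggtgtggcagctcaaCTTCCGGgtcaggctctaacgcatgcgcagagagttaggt
Taf10: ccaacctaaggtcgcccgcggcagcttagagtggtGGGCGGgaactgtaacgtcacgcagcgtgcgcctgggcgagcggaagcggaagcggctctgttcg
Taf9b: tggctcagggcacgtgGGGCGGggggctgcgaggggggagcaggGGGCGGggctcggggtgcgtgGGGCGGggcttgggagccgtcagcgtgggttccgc
Taf13: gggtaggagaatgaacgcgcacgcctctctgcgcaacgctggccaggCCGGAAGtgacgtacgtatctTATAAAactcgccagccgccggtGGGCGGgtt

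The Taf13 stretch held the TATA box at 32 bases before the start, and the printed stretches of Taf3, Taf10 and Taf9b held GC boxes and no TATAAA. The window of the other Taf9b start, not printed, held none of the motifs searched. Over the windows of 300 bases, searched on both strands, the ETS motif CCGGAAG was found in 14 of 36 windows of members (38.9%) and in 8.86% of all 32851 windows. The GC box GGGCGG was in 22 member windows (61.1%, against 35.7% of all), TATAAA in 7 (19.4%, against 13.6%) and CCAAT in 12 (33.3%, against 37.4%). The NRF1 motif was in 3 member windows and the YY1 motif in 2 (8.33% and 5.56%, against 4.60% and 0.852% of all windows). Member windows held a median of 21 CpG dinucleotides, against 7 over all windows. These are letter matches and not sites of binding, and windows of 1 gene can share bases.

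No member of the preinitiation machinery passed the test between the genotypes. With TMM scaling and all libraries Taf3 was the only member with an unadjusted edgeR p under 0.05, Taf9b and Taf4b had the most negative log2 fold changes, and the other 27 tested members lay between -0.13 and 0.17. In edgeR 0 of the 30 tested members had an adjusted p under 0.05, where the share called over all 15578 genes was 0%. DESeq2 called 0 members with 3.55% of its genes called, limma with voom called 0 members and 0 genes, and edgeR with sex as a factor called 0 members with 4.7% of genes called. In that fit 1 member, Taf3, was higher and 0 were lower at an unadjusted p under 0.05, with 6.98% and 13.1% of all genes. At an unadjusted edgeR p under 0.05, 1 member was higher and 0 were lower, where the shares over all genes were 4.9% and 10.5%. With library totals edgeR gave 0 higher and 1 lower, Taf9b (unadjusted edgeR p 0.0357), with 2% and 12.2% of all genes, and the unadjusted edgeR p of Taf3 was 0.0545. In female libraries alone 3 members were higher (Tbpl1, Gtf2a2 and Taf3) and 0 lower, with 6.92% and 12.3% of all genes. In male libraries alone 1 member, Taf3, was higher and 0 were lower, with 371 and 1335 of 16308 genes. The CPM of Cdk7_KO and Ctrl libraries overlapped for all 30 tested members, while 0.61% of all tested genes were higher and 2.41% lower without overlap.

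The 95% interval of the fold change lay within 1.5-fold in either direction for 29 of the 30 tested members. Taf4b, with 13 to 45 counts per library, was the exception. The count was 27 with library totals, 28 with sex as a factor, 22 with the index of other cell types, 24 in female and 20 in male libraries alone. Over all genes 58.6% had such an interval, and over the 9670 genes with at least 10 CPM on average 87.1%. All 29 members within the bound had at least 10 CPM on average. Taf1 and Taf15, members with many counts, had the narrowest intervals, with log2 fold changes of 0.06 (-0.07 to 0.18) for Taf1 and 0.05 (-0.07 to 0.18) for Taf15.

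**Figure D1:**
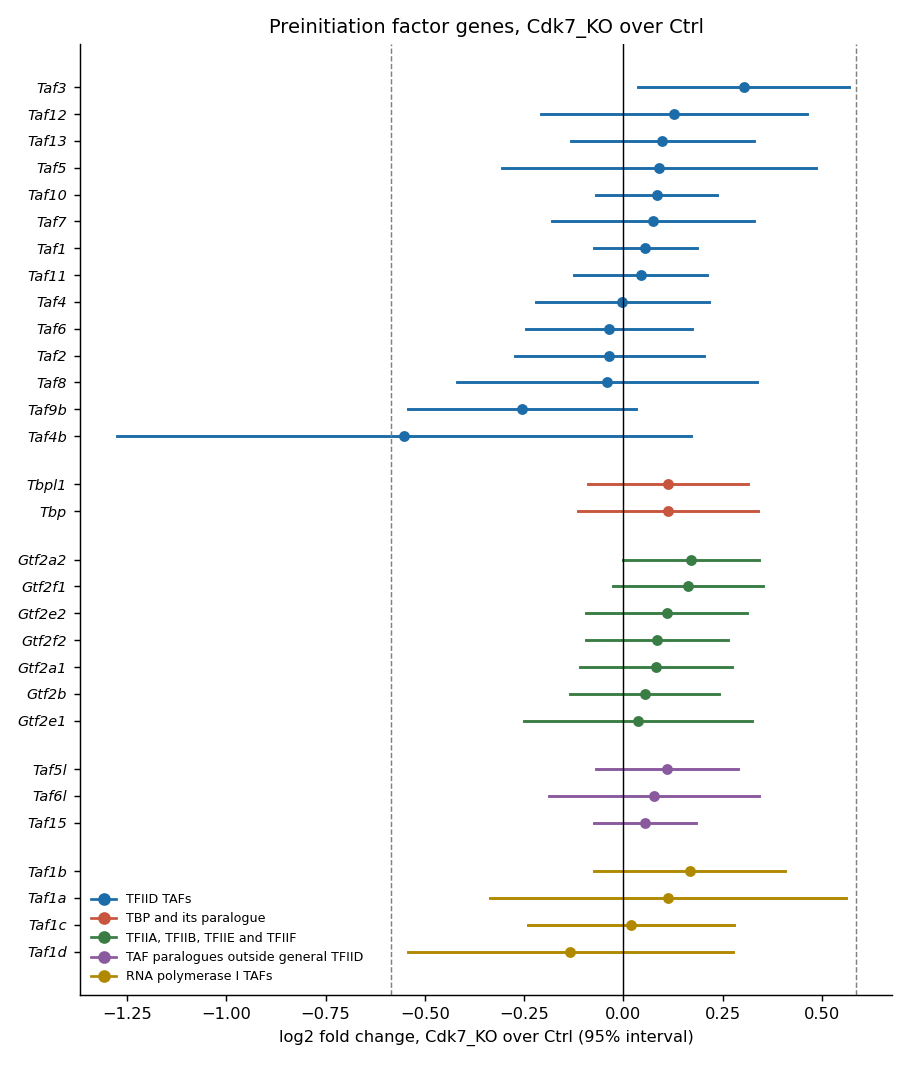
The log2 fold change of Cdk7_KO over Ctrl (x axis) is plotted for each tested member, grouped by role, with points for edgeR's estimates, bars for 95% intervals and dashed lines at 1.5-fold. The interval of Taf3 lies above 0, and the interval of Taf4b passes the dashed line.

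A positive log2 fold change was found for 23 of 30 members, where 52.5% of all genes and 63.8% of genes with at least 10 CPM had one. The median of the members was 0.08 and that of all genes 0.01. When libraries were scaled by their totals alone, the log2 fold changes of all genes shifted by a median of -0.05 relative to TMM. On that scale 20 of 30 members were positive with a median of 0.02, where 40.6% of all genes were positive with a median of -0.04. The shift between the scalings is not small beside the median of the members.

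The TFIID TAFs hold the histone-fold pairs, scaffold and promoter-contacting subunits of the complex. Of 15 genes 14 were tested, 8 with a positive and 6 with a negative log2 fold change, and their median was 0.05. Taf3, whose PHD finger binds histone H3 trimethylated on lysine 4, had 30.4, 24.0, 24.4, 30.7 and 28.4 CPM in Cdk7_KO replicates 1 to 5, against 20.8, 19.5, 25.0, 24.4 and 26.5 CPM in Ctrl replicates 1, 3, 4, 5 and 6. Cdk7_KO replicates 1, 4 and 5 lay above the highest Ctrl library, and the remaining Cdk7_KO libraries lay within the Ctrl range. The means were 27.6 ± 3.23 CPM in Cdk7_KO and 23.2 ± 2.96 CPM in Ctrl (SD, n = 5 each). This gave a log2 fold change of 0.30 (SE 0.12) with a 95% interval from 0.04 to 0.57. Its unadjusted edgeR p was 0.0286, its edgeR adjusted p was 0.264, and the two-sided exact permutation p on log2(CPM + 1) was 0.0714.

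The Taf3 value moved with several measures of the libraries. It was 0.40 in the male libraries alone and 0.32 in the female ones. With sex as a factor it was 0.36, and the edgeR adjusted p was 0.0632. With an index of other cell types as covariate it was 0.14, and the index did not overlap between the genotypes (-1.65 to 0.18 in Cdk7_KO, 0.24 to 0.87 in Ctrl). Without the 4 libraries in which the fewest genes had a count, which left only male Cdk7_KO libraries, it was 0.13. Over the 23 alternatives run, its log2 fold change lay between 0.13 and 0.41 and its adjusted p between 0.0632 and 1.0.

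Those 4 libraries, Cdk7_KO replicates 1, 4 and 5 and Ctrl replicate 6, had counts for 19467 to 20690 genes, while the other libraries had counts for at least 20877. They held the 4 highest CPM values of Taf3 and the 4 lowest of Taf1a, Taf1d and Taf6. Over all tested genes these 4 libraries were the 4 highest for 2.41% and the 4 lowest for 5.16%, and over the members for 3.33% and 10.0%. The part of this difference between libraries in the genotype values was not tested, and the pattern was picked out after the values were seen. The fit without these 4 kept Cdk7_KO replicates 2 and 3, both male, and Ctrl replicates 1 and 3 (male) and 4 and 5 (female). Sex and genotype are thus partly confounded in it. Taf1d, at -0.13 over all libraries, was at 0.15 in that fit. Since 3 of these 4 libraries are Cdk7_KO, leaving them out had to raise the Cdk7_KO mean of Taf1d and lower that of Taf3.

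**Figure D2:**
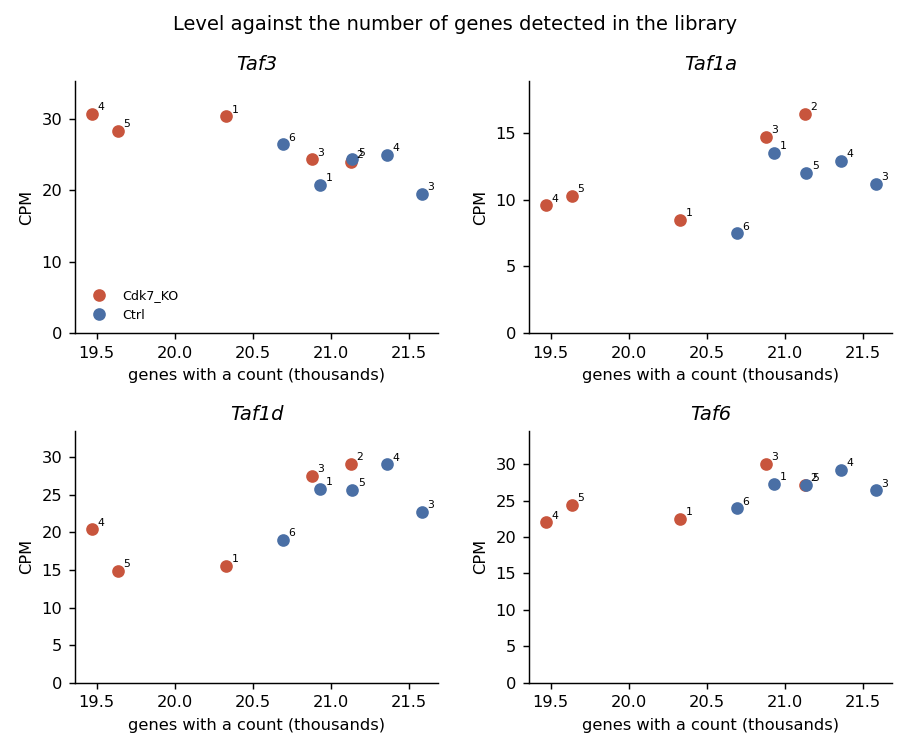
CPM of Taf3, Taf1a, Taf1d and Taf6 (y axes) is plotted against the number of genes with at least 1 count (x axis), 1 point per library, for Cdk7_KO and Ctrl. The 4 libraries with at most 20690 genes lie highest for Taf3 and lowest for the other genes shown.

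Taf10, a histone-fold subunit shared by TFIID and SAGA, was the steadiest of the closely described members in Ctrl. It had 41.0, 45.6, 50.7, 39.4 and 44.8 CPM in Cdk7_KO replicates 1 to 5, against 43.7, 42.3, 42.5, 44.9 and 43.0 CPM in Ctrl replicates 1, 3, 4, 5 and 6. The Cdk7_KO libraries lay on both sides of the narrow Ctrl range. Its log2 fold change was 0.08 (95% interval -0.07 to 0.24, edgeR adjusted p 0.607). Of the exon bases of Taf10, 45.9% are overlapped on the opposite strand by Ilk, and the strand setting of the counting is not stated. The counts of Taf10 may thus include reads of Ilk or lack reads from the shared bases. Overlaps with other genes also touch 26.5% of the exon bases of Taf6, 19.0% of Tbp, 16.7% of Taf1c, 16.2% of Taf11, 13.6% of Taf1d (10.1% on its own strand) and 12.4% of Tbpl1.

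Taf9b, the X-linked paralogue of Taf9 whose protein can take the place of TAF9, had 8.97, 9.57, 7.86, 8.75 and 11.0 CPM in Cdk7_KO replicates 1 to 5. Ctrl replicates 1, 3, 4, 5 and 6 had 12.6, 10.5, 11.7, 12.1 and 10.3 CPM. Of the Cdk7_KO libraries 4 lay below the lowest Ctrl library, and replicate 5 lay within the Ctrl range. Its log2 fold change of -0.25 (SE 0.13), with a 95% interval from -0.54 to 0.03, did not pass the test (unadjusted edgeR p 0.0768, edgeR adjusted p 0.382), with a two-sided exact permutation p of 0.0238 before any adjustment. The permutation used CPM on library totals without TMM, and with library totals the edgeR log2 fold change was -0.31. The log2 fold change was negative in all 23 alternatives run, between -0.41 and -0.11.

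Taf9 itself was not measured by these counts. It had 0, 3, 0, 0 and 0 counts in Cdk7_KO replicates 1 to 5. Ctrl replicates 1, 3, 4, 5 and 6 had 2, 0, 6, 11 and 1 counts (two-sided exact permutation p 0.127). Of the exon bases of Taf9, 73.8% are shared on the same strand with Ak6, an adenylate kinase gene whose span contains it. Ak6 lies at chr13:100650979-100666359 and Taf9 at chr13:100651579-100656060, both on the plus strand (GRCm38). Reads in the shared exons cannot be assigned to either gene by position alone. Ak6 had 16.3 ± 1.41 CPM in Cdk7_KO and 15.5 ± 1.29 CPM in Ctrl (SD, n = 5 each), with a log2 fold change of 0.12. Taf9 ends 46.6 kb before Cdk7, the deleted gene (chr13:100702631-100730939, minus strand). No ratio of Taf9b to Taf9 was computed.

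Taf4b, a paralogue of Taf4 known for its role in germ cells and ovary, was the least abundant tested member. It had 0.901, 1.76, 0.851, 0.547 and 0.782 CPM in Cdk7_KO replicates 1 to 5, against 1.74, 1.38, 1.41, 1.41 and 1.41 CPM in Ctrl replicates 1, 3, 4, 5 and 6. Cdk7_KO replicate 2 was the highest of the 10 libraries and the other Cdk7_KO libraries lay below all Ctrl libraries. A log2 fold change of -0.55 (SE 0.33) with a 95% interval from -1.28 to 0.17 did not pass the test (edgeR adjusted p 0.455), with a two-sided exact permutation p of 0.0476 before any adjustment. The permutation used CPM on library totals without TMM, and with library totals the edgeR log2 fold change was -0.60. Over the 23 alternatives run the log2 fold change lay between -0.99 (female libraries alone) and -0.17 (without the 4 libraries with the fewest genes). It was -0.87 without Cdk7_KO replicate 2, and Taf4b was not called under any of them.

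The other TFIID subunits lay close to 0. The largest subunit Taf1 was at 0.06, Taf2, which contacts promoter DNA, at -0.04, and the scaffold subunits Taf4, Taf5 and Taf6 at -0.00, 0.09 and -0.04. Taf7, which binds TAF1, was at 0.07, Taf8 at -0.04, and the histone-fold genes Taf11, Taf12 and Taf13 at 0.04, 0.13 and 0.10. None had an unadjusted edgeR p under 0.05. Taf5 averaged 14.8 ± 2.21 CPM in Cdk7_KO and 14.5 ± 3.71 CPM in Ctrl, and Taf8 14.1 ± 1.84 CPM in Cdk7_KO and 15.2 ± 3.89 CPM in Ctrl (SD, n = 5 each).

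**Figure D3:**
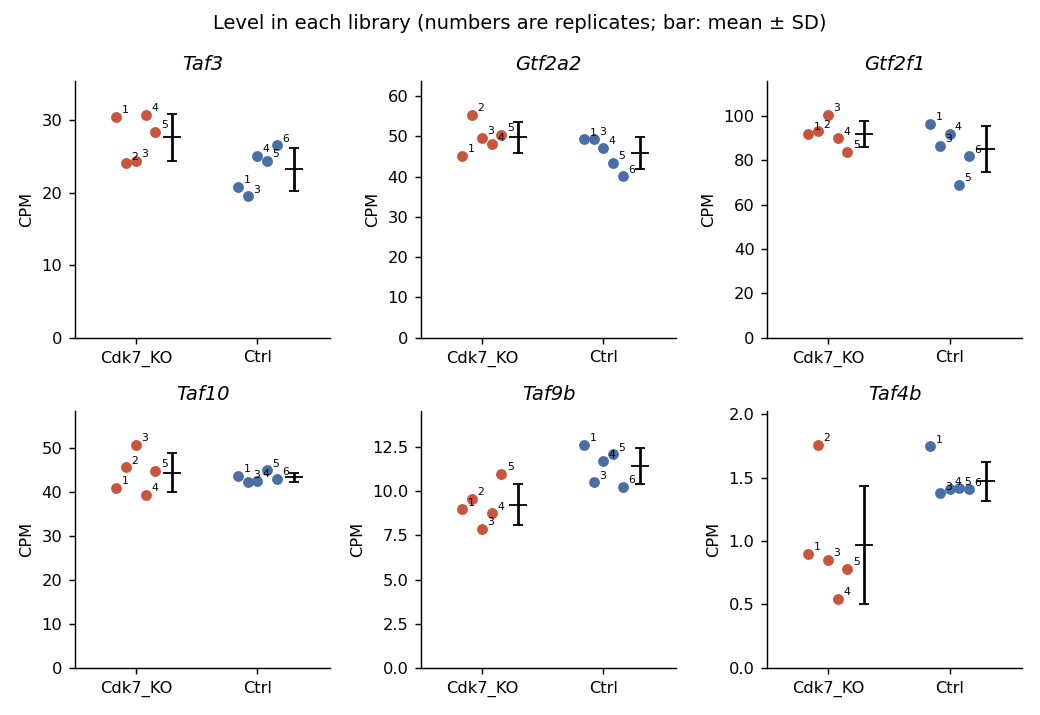
CPM (y axes) of Taf3, Gtf2a2, Gtf2f1, Taf10, Taf9b and Taf4b is plotted for each library, Cdk7_KO left of Ctrl, with 1 point per library and the mean and SD of each group. The groups overlap for every gene shown.

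Tbp, the DNA-binding subunit that all 3 nuclear RNA polymerases use, had 39.1, 30.9, 28.3, 31.1 and 35.0 CPM in Cdk7_KO replicates 1 to 5, against 30.6, 28.9, 36.6, 30.0 and 31.8 CPM in Ctrl replicates 1, 3, 4, 5 and 6. The groups overlapped broadly. Its log2 fold change was 0.11 (95% interval -0.11 to 0.34), and that of its paralogue Tbpl1, which binds TFIIA but not the TATA box, was also 0.11 (-0.09 to 0.31). Without the 4 libraries with the fewest genes both were negative, at -0.07 and -0.09. That fit set only male Cdk7_KO libraries against Ctrl libraries of both sexes, so sex and genotype are partly confounded in it. With sex as a factor over all libraries Tbp was at 0.13 and Tbpl1 at 0.14.

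All 7 genes of TFIIA, TFIIB, TFIIE and TFIIF had positive log2 fold changes, as did 63.8% of genes with at least 10 CPM on average. The 7 values lay between 0.04 and 0.17 with a median of 0.08, and 0 had an unadjusted edgeR p under 0.05. The median was 0.03 with library totals, 0.04 with the index of other cell types and 0.05 without Cdk7_KO replicate 4. Over the 23 alternatives the lowest values were -0.019 for Gtf2a1, -0.082 for Gtf2b, -0.22 for Gtf2e1 and -0.069 for Gtf2f2. Those of Gtf2a2, Gtf2e2 and Gtf2f1 stayed positive. Gtf2a2, the small TFIIA subunit, had 45.1, 55.4, 49.7, 48.0 and 50.4 CPM in Cdk7_KO replicates 1 to 5, against 49.3, 49.4, 47.2, 43.4 and 40.0 CPM in Ctrl replicates 1, 3, 4, 5 and 6. Cdk7_KO replicates 2, 3 and 5 lay above the highest Ctrl library and replicates 1 and 4 within the Ctrl range. The log2 fold change of Gtf2a2 came to 0.17 (SE 0.08; 95% interval from -0.00 to 0.34; unadjusted edgeR p 0.0511, edgeR adjusted p 0.328). Male libraries gave 0.04 and female ones 0.27, a difference that did not pass the interaction test given with the sexes.

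Gtf2f1, which encodes the large TFIIF subunit, had 91.8, 93.1, 100.6, 89.9 and 83.8 CPM in Cdk7_KO replicates 1 to 5, against 96.4, 86.3, 91.8, 69.0 and 81.7 CPM in Ctrl replicates 1, 3, 4, 5 and 6. Only Cdk7_KO replicate 3 lay above all Ctrl libraries, and Ctrl replicate 5 was the lowest of all. The log2 fold change was 0.16 (95% interval -0.03 to 0.35, edgeR adjusted p 0.401), and without Ctrl replicate 5 it was 0.09. The others were Gtf2a1, the precursor of the large TFIIA subunits, at 0.08, Gtf2b at 0.05, the TFIIE subunits Gtf2e1 and Gtf2e2 at 0.04 and 0.11, and the small TFIIF subunit Gtf2f2 at 0.08. With library totals Gtf2e1 was at -0.02.

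The proportions of paired subunits and paralogues overlapped between the genotypes, and 0 of 6 passed the test. The log2 ratio of Gtf2f1 to Gtf2f2 was 1.53 ± 0.15 in Cdk7_KO and 1.44 ± 0.20 in Ctrl (SD, n = 5 each), and that of Gtf2a1 to Gtf2a2 was -0.10 ± 0.15 in Cdk7_KO and -0.02 ± 0.26 in Ctrl. For Gtf2e1 to Gtf2e2 it was 0.51 ± 0.32 in Cdk7_KO and 0.59 ± 0.24 in Ctrl, and for Tbpl1 to Tbp 1.24 ± 0.18 in Cdk7_KO and 1.25 ± 0.12 in Ctrl. Taf4b to Taf4 was at -4.96 ± 0.63 in Cdk7_KO and -4.31 ± 0.27 in Ctrl, and Taf3 to Taf10 at -0.69 ± 0.30 in Cdk7_KO and -0.91 ± 0.18 in Ctrl. The smallest two-sided exact permutation p, for Taf4b to Taf4, was 0.0794 (0.476 adjusted over the 6 ratios). Without Cdk7_KO replicate 2 the difference of that ratio was -0.91, and it passed (exact permutation p adjusted over the 6 ratios 0.0476). In this ratio replicate 2 was the only Cdk7_KO library that did not lie below all Ctrl libraries. Leaving it out thus set the permutation p to the lowest value possible for the libraries that remained. These ratios are of counts within each library, with a small constant added to each count, and are not per length.

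The TAF paralogues outside general TFIID had log2 fold changes of 0.11 for Taf5l and 0.08 for Taf6l, the SAGA counterparts of Taf5 and Taf6, and 0.05 for Taf15, an RNA-binding protein. Taf15 averaged 105.1 ± 4.10 CPM in Cdk7_KO and 105.0 ± 8.70 CPM in Ctrl (SD, n = 5 each). Taf7l, a Taf7 paralogue of male germ cells and fat, had 4 counts in Cdk7_KO replicate 2 and 0 in the other 9 libraries. The TAFs of the RNA polymerase I selectivity factor were at 0.11 for Taf1a, 0.17 for Taf1b, 0.02 for Taf1c and -0.13 for Taf1d, and 0 of the 4 had an unadjusted edgeR p under 0.05. Taf1d had 15.5, 29.1, 27.5, 20.4 and 14.9 CPM in Cdk7_KO replicates 1 to 5, against 25.7, 22.7, 29.0, 25.6 and 19.0 CPM in Ctrl replicates 1, 3, 4, 5 and 6. Cdk7_KO replicates 1 and 5 were the lowest of the 10 libraries, and replicate 2 was the highest.

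**Figure D4:**
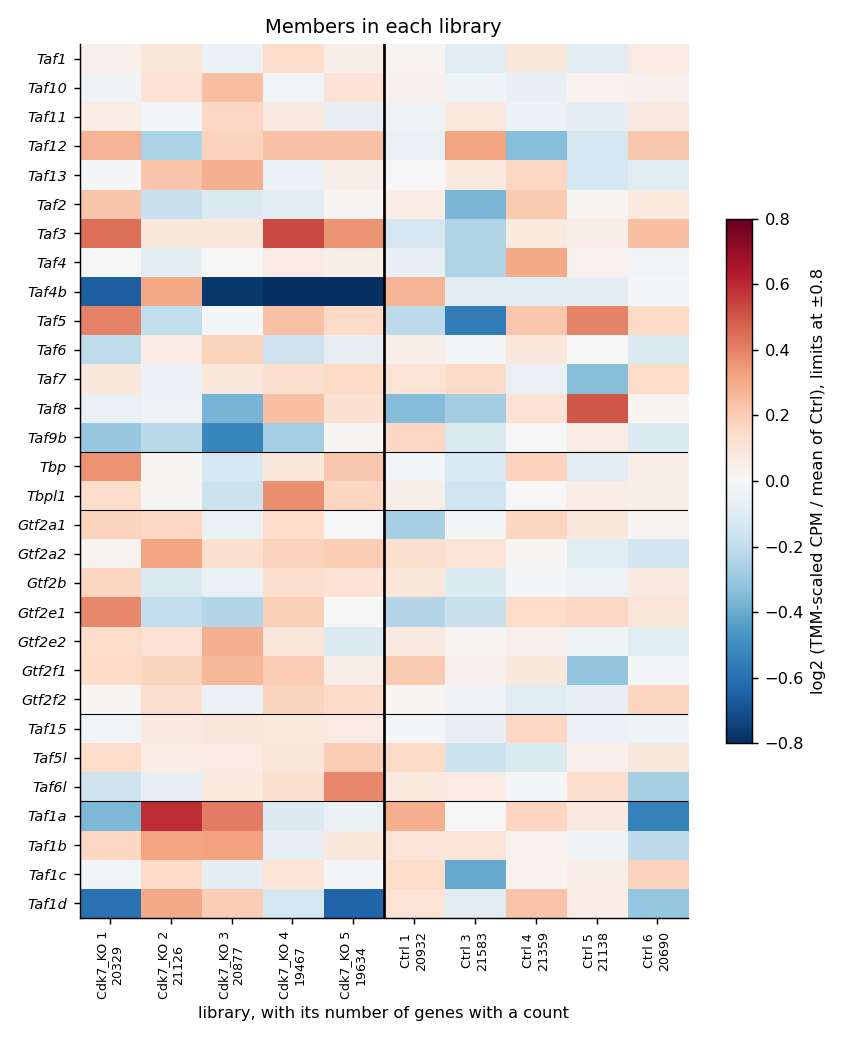
Each row is a tested member and each column a library, Cdk7_KO left of Ctrl, and the colour is the log2 ratio of the library's TMM-scaled CPM to the Ctrl mean, with colours limited to 0.8 in either direction. Both signs occur in both genotypes, and Taf4b reaches the colour limit.

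Per summed length of annotated exons, in TPM (counts per kb of exon, scaled to the same sum in every library), the members spanned a wide range. Gtf2f1 was the highest, at 199.8 ± 14.7 TPM in Cdk7_KO and 189.5 ± 23.4 TPM in Ctrl (SD, n = 5 each), followed by Taf15 at 134.4 ± 5.65 TPM in Cdk7_KO and 137.7 ± 12.7 TPM in Ctrl. Tbpl1 came next, at 88.7 ± 9.72 TPM in Cdk7_KO and 87.5 ± 6.56 TPM in Ctrl, and the lowest tested member was Taf4b, at 0.703 ± 0.339 TPM in Cdk7_KO and 1.09 ± 0.115 TPM in Ctrl. Among TFIID TAFs Taf1 was the highest, at 48.3 ± 1.63 TPM in Cdk7_KO and 49.4 ± 3.34 TPM in Ctrl. Among polymerase I TAFs the highest was Taf1b, at 27.7 ± 3.89 TPM in Cdk7_KO and 26.1 ± 2.34 TPM in Ctrl, and the lowest Taf1d, at 8.98 ± 2.81 TPM in Cdk7_KO and 10.4 ± 1.68 TPM in Ctrl. Of the initiation factors Gtf2e1 was the lowest, at 20.6 ± 3.71 TPM in Cdk7_KO and 21.5 ± 3.20 TPM in Ctrl.

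Tbpl1 thus stood above Tbp, which was at 9.04 ± 1.17 TPM in Cdk7_KO and 8.91 ± 0.943 TPM in Ctrl. The annotated exons of Tbp are long (13.6 kb, against 3.27 kb for Tbpl1), which widens this gap. Without division by length Tbpl1 averaged 77.7 CPM in Cdk7_KO and 74.8 CPM in Ctrl. Tbp averaged 32.9 CPM in Cdk7_KO and 31.6 CPM in Ctrl. In the order of Ctrl levels of the tested members, 26 of 29 neighbours had overlapping Ctrl ranges. The ranges were apart between Taf15 and Tbpl1, Gtf2f2 and Taf1, and Tbp and Taf4b. The order depends on the length used: per longest transcript Taf15 (148.8 TPM in Ctrl) stood above Gtf2f1 (145.1 TPM), Gtf2a2 (83.2 TPM) above Tbpl1 (76.3 TPM), and Gtf2a1 (22.0 TPM) below Gtf2e1 (27.2 TPM). Summed over the members, the level was 1085 ± 26.5 TPM in Cdk7_KO and 1085 ± 58.7 TPM in Ctrl (SD, n = 5 each). In Ctrl the CPM of the tested members varied with a median coefficient of variation of 10.2%, against 10.8% over genes with at least 10 CPM.

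**Figure D5:**
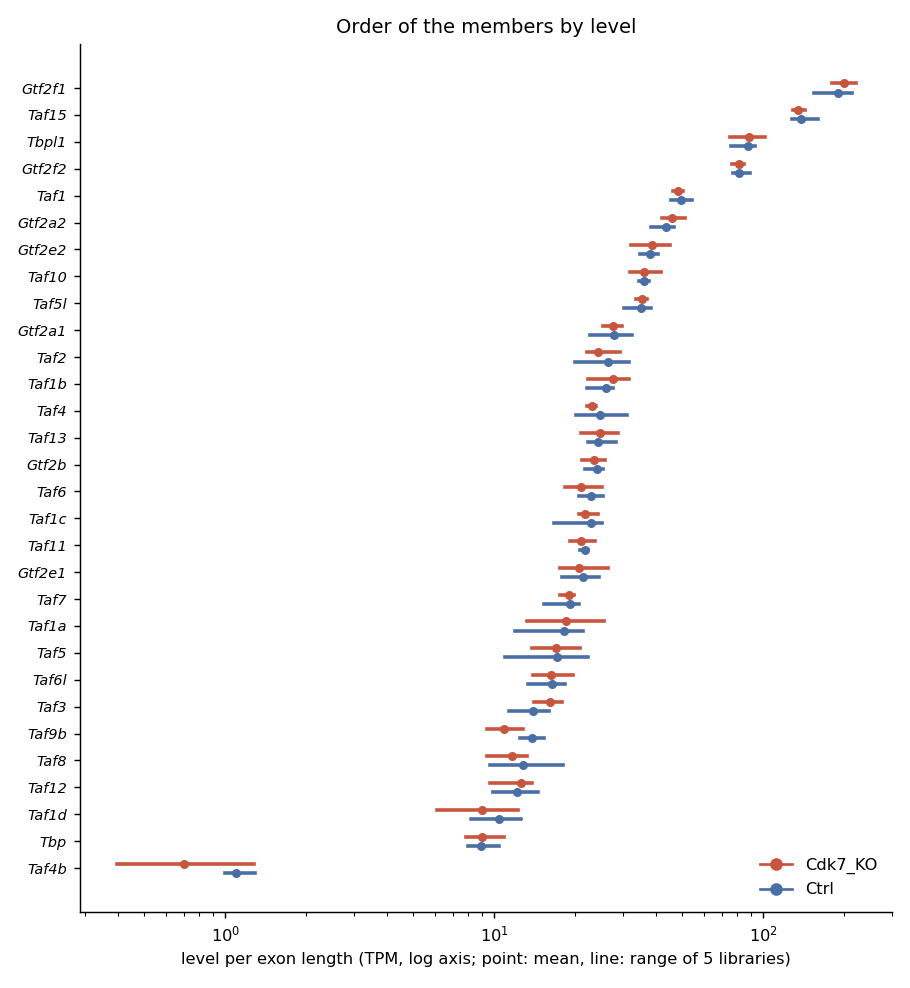
The level per length (TPM, log axis) is plotted for the members with a count in every library, ordered by their Ctrl mean, with the mean and range of Cdk7_KO above that of Ctrl for each gene. Gtf2f1 lies highest and Taf4b lowest, and the ranges of the genotypes overlap for each gene shown.

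With genotype as a factor, 4 members differed between male and female libraries at an unadjusted edgeR p under 0.05, where the share over all genes was 17.7%. All 4 were lower in male libraries, with log2 differences of -0.43 for Taf8, -0.27 for Taf3, -0.37 for Taf5 and -0.18 for Tbpl1. The smallest edgeR adjusted p was 0.125, while 0.353% of all genes passed. For the difference of the genotype effect between the sexes, 0 members had an unadjusted edgeR p under 0.05 (7.34% of all genes), and the smallest adjusted p of a member was 0.665. Fitted for each sex alone, 15 members were positive in both, 4 negative in both and 11 of opposite sign.

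Other genes that work with the members were taken from lists named by complex. Of 16 SAGA and PCAF genes, whose complexes share TAFs with TFIID, 10 had positive and 6 negative log2 fold changes with a median of 0.04, and 1 was higher at an unadjusted edgeR p under 0.05. That gene, Atxn7l3, an adaptor of the SAGA deubiquitinase module, had 306 ± 7.97 CPM in Cdk7_KO and 283 ± 6.21 CPM in Ctrl (SD, n = 5 each) without overlap, a log2 fold change of 0.17 and an edgeR adjusted p of 0.187. Over all tested genes 0.61% were higher without overlap. With library totals the log2 fold change of Atxn7l3 was 0.11, and Tada3, Supt3 and Sf3b5 changed from positive to negative. On that scale Gtf3c6, Snapc2 and Snapc4, of the polymerase I and III factors below, also turned negative. Of all tested genes 52.5% were positive with TMM and 40.6% with library totals. With TMM 63.8% of genes with at least 10 CPM on average were positive. Of 17 initiation factors of RNA polymerases I and III, 14 were positive and 3 negative with a median of 0.12, and Gtf3a, the factor that binds the 5S RNA gene, was at 0.17 (edgeR adjusted p 0.230). Of the regulators of TBP 3 of 5 were tested, 2 positive and 1 negative, with Drap1, a subunit of the repressor NC2, at 0.16 (edgeR adjusted p 0.319). In edgeR 0 genes of these 3 lists passed over all genes, and each list had 1 gene higher and 0 lower at an unadjusted p under 0.05, where 4.9% of all genes were higher and 10.5% lower.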

How the data were processed

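The authors deposited whole-number counts per gene for 10 libraries, not normalized. The GRCm38 build, STAR and Salmon are named, per the submitters' processing notes, with no version or role, and whether strand was used in counting is not stated. The members and lists were chosen with earlier results of these data known. Library columns were matched to samples by name. Every pair of libraries differed beyond sampling noise (chi-square of at least 11.2 per gene).

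The test was edgeR 4.0.16 in R 4.3.3 (filterByExpr by group with a minimum count of 10, TMM, glmQLFit, glmQLFTest, genotype alone), adjusted by Benjamini-Hochberg over 15578 genes at 0.05. Standard errors and 95% intervals come from this fit. CPM uses library totals; TPM uses exon lengths of GENCODE M21, in which 55480 of the 55573 IDs matched. For ratios and single genes the test was a two-sided exact permutation of the libraries. For single genes it used log2(CPM + 1) on library totals, without TMM. DESeq2 1.42.0, which left 11941 adjusted p-values missing, and limma 3.58.1 (voom) were alternatives, with other scalings, filters, left-out libraries, a replicate block, sex and the index of other cell types. Leaving out the 4 libraries with the fewest detected genes was chosen after seeing the data. It left only male Cdk7_KO libraries against Ctrl libraries of both sexes. The scripts were tested on simulated data. Counting error is largest for rare RNAs such as Taf4b.

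Named genes were Cdk7, Taf3, Gtf2a2, Gtf2f1, Taf10, members with an unadjusted edgeR p under 0.05 or without overlap, paired members and the highest and lowest of each role; Taf9, Taf9b, Taf4b, Taf7l, Taf5, Taf8, Taf1d and Taf15 were described more fully after their values were seen. Another small list of related genes is not reported here.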

Additional observations from a re-analysis of the deposited data

Results flagged for a closer look

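In 4 cases 1 library stood far from the other 4 of its group, by Dixon's criterion. Taf1c was at 15.6 CPM in Ctrl replicate 3, with 21.6 CPM in the nearest Ctrl library. Taf15 was at 120 CPM in Ctrl replicate 4, with 103 CPM in the nearest. Taf12 was at 10.4 CPM in Cdk7_KO replicate 2, with 13.8 CPM in the nearest Cdk7_KO library. Taf4b was at 1.74 CPM in Ctrl replicate 1, with 1.41 CPM in the nearest. Of 60 groups of 5 values examined these were 4, and chance alone picks out about 1 in 20 groups.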

How the results depend on the processing

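No member was called under any of the 23 alternatives. Over all genes DESeq2 called 578, sex as a factor 732, no filter 1, leaving out the 4 libraries with the fewest detected genes 1, and leaving out each library in turn 0 to 5. Cdk7 passed with DESeq2 (-1.54), no filter (-1.54) and sex as a factor (-1.43), and lay between -1.68 and -1.44 with each library left out, passing without Cdk7_KO replicate 1, where 5 genes were called. The median of the members (0.08) was 0.025 with library totals, 0.059 with a mean of at least 1 CPM, 0.035 in female libraries, 0.043 with the other-cell index, 0.045 without those 4 libraries and 0.049 to 0.086 leaving out each library. That of the TFIID TAFs (0.05) was -0.0028 with library totals, -0.012 in female libraries, 0.010 without those 4 and 0.0037 to 0.068 leaving out each library. The ratio of Taf4b to Taf4 passed when Cdk7_KO replicate 2 was left out (0 to 1 ratios). That library was the only Cdk7_KO library not below all Ctrl libraries in this ratio.

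Same-numbered libraries deviated with correlations of -0.10, 0.31, 0.14 and 0.17, and 0 of the 4 numbers were closest to their own. No pairing by number was thus seen, though a check of 4 numbers cannot exclude one. With the replicate block on 8 libraries 5 genes and 0 members were called. Taf1a was then at -0.16, Taf2 at 0.028 and Taf4 at 0.024.

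Of the values of members under alternatives 56 changed sign, none of a called gene; the cause was not tested. In female libraries these were Taf1a (-0.016), Taf1c (-0.039), Gtf2a1 (-0.019), Gtf2e1 (-0.039) and Taf5 (-0.062). In male libraries they were Taf6l (-0.13), Taf12 (-0.062), Taf2 (0.12), Taf4 (0.12), Taf7 (-0.091) and Taf8 (0.16). With library totals they were Taf1c (-0.033), Gtf2e1 (-0.020) and Taf11 (-0.0077). With the other-cell index they were Taf1c (-0.17), Tbpl1 (-0.099), Gtf2f2 (-0.069), Taf1 (-0.067), Taf2 (0.019) and Taf6 (0.030). Taf4 was at 0.00081 with no filter, 0.012 with voom and 0.037 with sex as a factor, where Taf8 was at 0.060. Without the 4 libraries they were Taf1d (0.15), Taf6l (-0.074), Tbp (-0.073), Tbpl1 (-0.086), Gtf2b (-0.082), Gtf2e1 (-0.22), Taf12 (-0.0016), Taf5 (-0.13) and Taf6 (0.073). Leaving out each library in turn gave -0.061 to 0.099 for Gtf2e1, -0.097 to 0.0038 for Taf6, -0.027 to 0.21 for Taf1a, -0.069 to 0.066 for Taf1c and -0.12 to 0.022 for Taf2. It gave -0.059 to 0.083 for Taf4, -0.12 to 0.10 for Taf8, -0.0061 to 0.13 for Taf6l, -0.028 to 0.20 for Taf5 and -0.0021 to 0.11 for Taf7. Differences of the log2 ratios (Cdk7_KO minus Ctrl) were then -0.072 to 0.050 for Tbpl1 to Tbp and -0.16 to 0.033 for Gtf2e1 to Gtf2e2.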
